A study of Mus musculus with 12 samples.

Results

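Expression in P2+ PreMegEs was compared with that in WT PreMegEs, using 3 libraries of each, which are 6 of the 12 libraries of the series. PreMegEs are bone marrow progenitors that give rise to megakaryocytes, the cells that shed platelets, and to erythroid cells. The P2+ cells came from mice of genotype Runx1 P1-GFP::P2-hCD4/+, which carry GFP at the distal promoter (P1) and human CD4 at the proximal promoter (P2) of a single Runx1 allele, and they were sorted as P1+ cells with human CD4 on their surface. The WT cells came from wild type mice and were not divided by promoter activity. Both groups shared the C57BL/6 background, an age between 12 and 16 weeks and the pooling of 3 mice per library. Because the reporter allele and the division by P2 activity occur together in the P2+ group and neither occurs in the WT group, they cannot be told apart in this comparison. Of the 41128 genes in the count table, 12941 had at least 1 CPM, a count scaled to the size of its library, in at least 3 of the 6 libraries and were tested.

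RUNX1 is a transcription factor needed to establish adult blood formation and, later, to mature megakaryocytes. Its promoters P1 and P2 give rise to proteins that differ at their amino terminus. A progenitor that moves towards the erythroid fate switches on KLF1, EPO receptor signalling, heme synthesis and the proteins of the red cell membrane skeleton, whereas one that moves towards the megakaryocyte fate builds up platelet receptors, granule proteins and the integrin αIIbβ3.

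The libraries held between 11653539 and 14440459 counts, so that 3 counts, taken as the upper limit that a count of 0 allows, equalled between 0.210 and 0.257 CPM and covered counting error only. Genes of the sorted cell type were present, with Gata2 between 902 and 1225 CPM, Gata1 between 180.5 and 238 CPM, Slamf1 (which encodes CD150, used in the sort) between 34.5 and 54.5 CPM and Itga2b (which encodes CD41, whose surface protein was absent by the gate) between 142 and 324 CPM. Of the genes of other blood cells checked, the T cell gene Cd3e and the neutrophil gene Ly6g did not exceed 0.600 and 0.353 CPM, the B cell gene Ms4a1 reached 1.77 CPM in WT replicate 3, and the myeloid gene Itgam was present in every library, between 2.29 and 7.25 CPM. On principal component 1 (47.5% of the variance) the groups lay apart, and on component 2 (20.9%) P2+ replicate 2 stood apart from the other 5 libraries. Its immediate early genes were high, as described with the values further on, so that counts are given with and without it. The libraries also differed in sex-linked genes. P2+ replicate 3 had no count on the Y-linked gene Ddx3y, whereas P2+ replicate 2 had 73.2 CPM of it and 5.30 CPM of Xist, against at least 842 CPM in each of the other 5 libraries. The part of these features in the results was not tested except by leaving libraries out.

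Runx1 (ENSMUSG00000022952, chr16:92601466-92826149, - strand) is a check of the sort, which used its P2 reporter, and no finding. It measured 666, 635 and 621 CPM in the P2+ libraries and 366, 393 and 362 CPM in the WT libraries, which is 1.71-fold higher, with no overlap. Its exons overlap those of Gm26626 on the opposite strand. The paper speaks of Runx1 haploinsufficiency in the reporter mice, so the fold compares mice that also differ in functional Runx1 alleles. Whether reads of the reporter allele were counted is not given.

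The question that this comparison addresses is how the fraction with P2 activity differs from the whole PreMegE population. In total 497 genes differed by at least 2-fold at an adjusted p under 0.05 and are called changed here, and 464 of them were protein-coding. They comprised 280 genes with a higher level in the P2+ libraries (2.16% of the genes tested) and 217 with a lower level (1.68%). Rises were more frequent, and falls were larger. The paper reports P2 activity in a minority of the PreMegEs of reporter mice. The undivided WT cells can therefore include cells of the P2+ kind, which limits the size of a rise but not of a fall. The part of this limit in the difference was not tested. On the log2 scale, 29 of the higher and 71 of the lower genes reached a size of 2, and 4 and 29 of them a size of 3. The median log2 fold change was 1.31 among the higher and -1.64 among the lower genes, against 0.00 over all genes tested, whose quartiles were -0.19 and 0.22. In 12 of the higher genes all WT libraries were under 1 CPM, and in 27 of the lower genes all P2+ libraries were, so that these passed the filter on low counts through a single group. Among the other 268 higher and 190 lower genes, 20 and 48 reached a size of 2, 3 and 21 a size of 3, and the medians were 1.28 and -1.51. Between the groups the libraries did not overlap for 495 of the 497, against 35.5% of all genes tested. Genes picked by these thresholds from the same libraries seldom overlap, so this describes the calls and is no support for them. In bulk RNA a gene can be lower because fewer cells express it or because each cell holds less of it, and these cannot be told apart.

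With no minimum fold, 1223 genes (9.45%) were higher and 915 (7.07%) were lower, which are the shares against which the gene lists below are read. Leaving out P2+ replicate 2 gave 535 changed genes, of which 421 were among the 497. The 76 changed genes that were lost comprised 57 higher and 19 lower genes, and 12 of the 76 no longer passed the filter on low counts. Exons of 126 of the changed genes overlap an exon on the opposite strand, and since the sources do not state whether counting used the strand, values of such genes may hold reads of their neighbour. Where a pair is not named beside its values below, the genes concerned are Alas1, Alas2, Ank1, Bhlhe40, Ccna2, Ccnd2, Ccne2, Cdkn1c, Cish, Coro1a, Cpox, Dusp5, Gadd45a, Gapdh, Il6ra, Itga4, Jun, Meis1, Mpo, Myb, Ppox, Prkca, Prtn3, Ptgs1, Runx2, Selp, Slc11a2, Slc2a1, Sox4, Sptb, Tiparp and Tpm4.

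**Figure D1:**
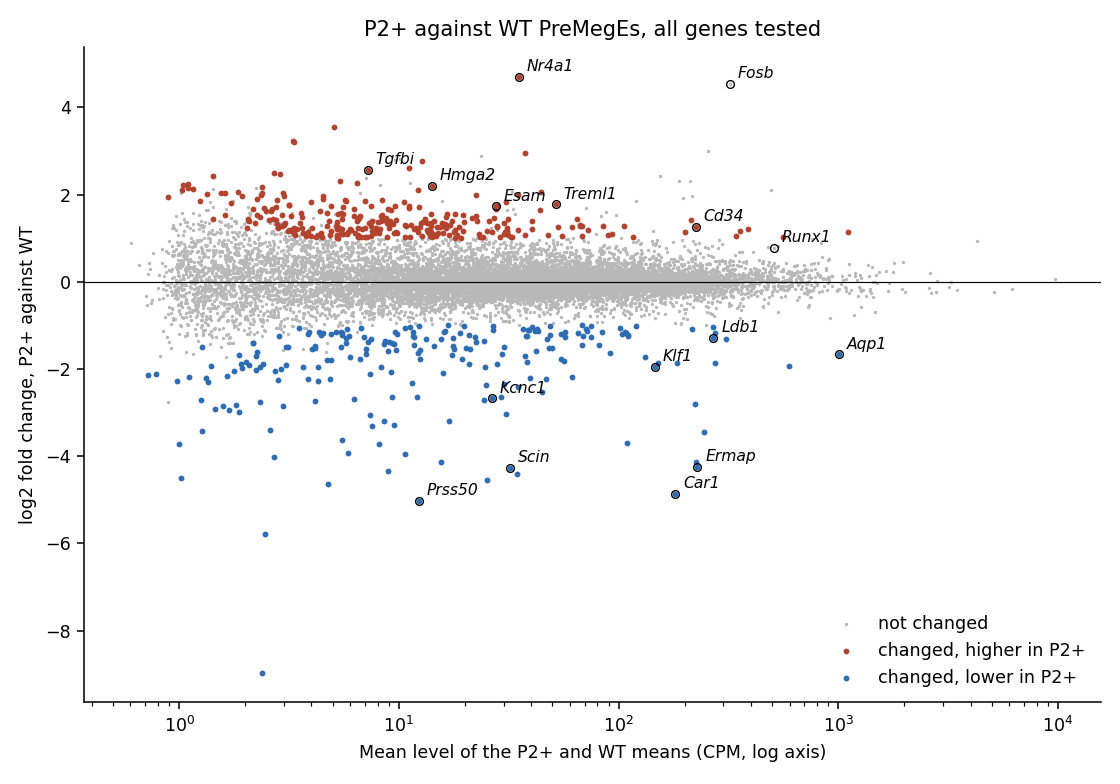
Log2 fold change of P2+ against WT PreMegEs for the 12941 genes tested (vertical axis) against the mean level of both groups in CPM (horizontal log axis). Red and blue points are the 280 higher and 217 lower changed genes and grey points all others; 29 blue points lie at or beyond a size of 3, against 4 red points, among them the immediate early gene Nr4a1.

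The 12 largest rises, among genes with at least 10 CPM whose libraries did not overlap and whose call held without P2+ replicate 2, are described first. Tgfbi (ENSMUSG00000035493, chr13:56609523-56639562, + strand), a secreted matrix protein induced by TGF-beta, measured 10.8, 11.8 and 14.4 CPM in the P2+ libraries and 2.24, 1.89 and 2.07 CPM in the WT libraries. Every P2+ library lay above every WT library, and the log2 fold change was 2.57 ± 0.23 (SE; adjusted p = 6.64e-05). Itgb6 (chr2:60598292-60722643, - strand) encodes integrin β6, which activates latent TGF-beta together with its αv partner, and rose from 2.66, 2.40 and 1.55 CPM to 12.5, 8.41 and 11.1 CPM (4.83-fold, adjusted p = 4.78e-04). Hmga2 (chr10:120361275-120476469, - strand), an architectural chromatin protein, measured 24.8, 25.3 and 19.3 CPM against 2.31, 5.75 and 7.15 CPM, a log2 fold change of 2.20 ± 0.32 (adjusted p = 0.00117), and its exons overlap those of 1700006J14Rik on the opposite strand. The lowest of the WT libraries was replicate 1, here and for Podxl.

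Among the same 12 genes were receptor chains. Csf3r, the receptor for G-CSF, measured 39.9, 33.6 and 34.1 CPM in P2+ and 13.3, 5.57 and 7.97 CPM in WT PreMegEs (3.98-fold, adjusted p = 5.34e-04). Csf2rb, the common beta chain of the receptors for IL-3, GM-CSF and IL-5, measured 63.3, 28.1 and 52.3 CPM against 15.5, 11.8 and 13.1 CPM (3.53-fold, adjusted p = 0.00102). P2+ replicate 2 was the lowest of the P2+ libraries for it, and the log2 fold change of 1.82 ± 0.26 was 2.09 ± 0.15 without that library. Its neighbour Csf2rb2, the IL-3 specific beta chain of mice, has a closely similar sequence and gave a log2 fold change of 1.83 ± 0.29, and reads may be divided between the pair. Ms4a2, the beta chain of the high-affinity IgE receptor, rose 4.15-fold, from 24.1, 10.4 and 17.0 CPM to 91.1, 73.5 and 50.5 CPM. Ebi3, a subunit shared by IL-27 and IL-35, rose 3.33-fold, and its exons overlap those of Gm16712 on the opposite strand.

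Podxl, the sialomucin podocalyxin, measured 54.5, 69.9 and 43.4 CPM against 7.48, 16.4 and 18.4 CPM (3.98-fold, adjusted p = 0.00108). Treml1, a receptor stored in platelet alpha granules, measured 60.4, 90.3 and 88.9 CPM against 19.5, 25.1 and 25.5 CPM (3.42-fold, adjusted p = 7.43e-05). The caveolin gene Cav2 and Apbb2, an adaptor of the amyloid precursor protein, rose 3.67-fold and 3.62-fold.

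The 12 largest falls were between 13.1-fold and 32.7-fold, and several belong to the red cell. Their sizes are not directly comparable with those of the rises, which P2+ cells within the WT population can limit. Car1 (ENSMUSG00000027556, chr3:14766216-14808368, - strand), the carbonic anhydrase of red cells, measured 13.1, 13.0 and 9.80 CPM in the P2+ libraries and 335, 348 and 365 CPM in the WT libraries. The libraries of each group lay close together and far from those of the other, with a log2 fold change of -4.87 ± 0.12 (adjusted p = 1.08e-08), the smallest p of all genes tested. Pklr (chr3:89136142-89146784, + strand), the pyruvate kinase of liver and red cells, fell from 38.1, 56.4 and 51.0 CPM to 2.88, 2.05 and 1.31 CPM, and its exons overlap those of Hcn3 on the opposite strand. Ermap (chr4:119175457-119190011, - strand), an erythroid membrane protein, measured 34.2, 24.4 and 10.3 CPM against 375, 498 and 428 CPM, a 18.9-fold fall (adjusted p = 2.42e-05). Among the P2+ libraries replicate 3 was the lowest for both. Tspo2, the erythroid relative of the mitochondrial translocator protein, measured 5.25, 1.98 and 2.31 CPM against 77.5, 62.1 and 58.7 CPM (21.1-fold lower). Add2, beta-adducin of the red cell membrane skeleton, measured 0.848, 1.13 and 0.154 CPM against 12.9, 11.2 and 9.07 CPM (15.3-fold lower), and it overlaps Gm44089 on the opposite strand.

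The remaining falls are not confined to red cell proteins. Prss50 (chr9:110857967-110864629, + strand), a serine protease known from testis, showed the largest fall of these, from 19.3, 27.4 and 25.2 CPM to 1.02, 0.494 and 0.694 CPM (log2 fold change -5.03 ± 0.27, adjusted p = 2.61e-06). Atp1b2, a beta subunit of the sodium pump, was at 369, 488 and 425 CPM in WT and 25.9, 32.5 and 14.6 CPM in P2+ PreMegEs (17.5-fold lower, adjusted p = 3.60e-06). Scin, an actin-severing protein, measured 3.39, 4.45 and 1.54 CPM against 60.3, 67.9 and 54.6 CPM (19.3-fold lower, adjusted p = 4.72e-06). The sphingosine kinase gene Sphk1 (overlapping Gm29292), the mitochondrial carrier gene Slc25a21 (overlapping Pax9), the cytokine receptor gene Il31ra and the glutamine transporter gene Slc38a5 were 15.5-fold, 20.4-fold, 17.4-fold and 13.1-fold lower. Below 10 CPM, and chosen after its values were seen, the metallothionein gene Mt2 had no count in any P2+ library and 2.94, 6.00 and 5.38 CPM in the WT libraries. Against a limit of 3 counts per library (0.233 CPM on average) it was at least 20.5-fold lower in P2+ PreMegEs, and its exons overlap those of Gm45774.

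**Figure D2:**
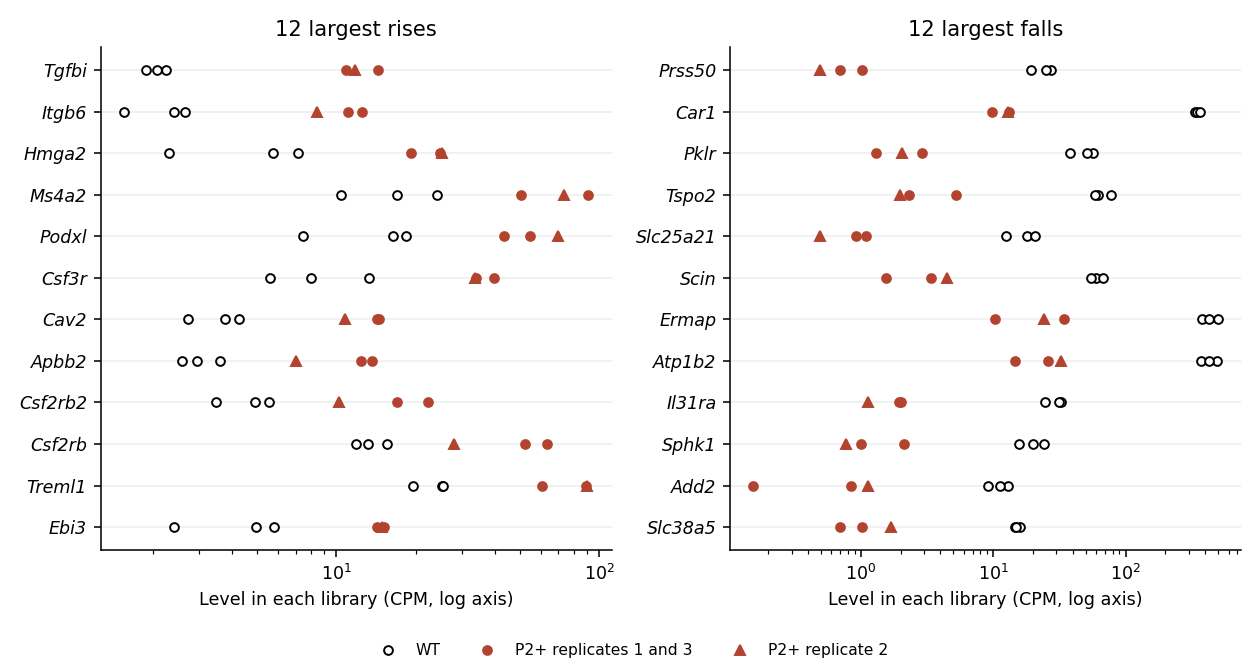
Level in CPM (log axis) of the 12 genes with the largest rises (left) and the 12 with the largest falls (right), ordered by fold change. Each symbol is a library, open for WT and red for P2+, with P2+ replicate 2 as a triangle. The genes were chosen to have no overlap between the groups. The gap is wider for the falls, whose size P2+ cells within the WT population do not limit as they can limit rises.

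The stretch before the start of 3 of the rises and 3 of the falls is shown because these genes carry the ends of the comparison. The sequences are the 150 bases just upstream of the annotated gene start, taken from the RefSeq promoter table of GRCm38.p6 for the first genes of each list that have an entry there, which leaves out Car1. They are printed 5′ to 3′ along the strand of the gene, with matches to a searched motif in capitals.
Tgfbi (chr13:56609373-56609522, + strand): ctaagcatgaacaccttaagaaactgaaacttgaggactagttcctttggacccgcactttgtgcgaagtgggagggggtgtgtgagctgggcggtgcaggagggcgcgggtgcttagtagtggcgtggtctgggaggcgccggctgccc
Itgb6 (chr2:60722644-60722793, - strand): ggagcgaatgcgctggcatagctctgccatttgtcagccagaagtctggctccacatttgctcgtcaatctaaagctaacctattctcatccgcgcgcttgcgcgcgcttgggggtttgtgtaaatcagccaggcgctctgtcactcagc
Hmga2 (chr10:120476470-120476619, - strand): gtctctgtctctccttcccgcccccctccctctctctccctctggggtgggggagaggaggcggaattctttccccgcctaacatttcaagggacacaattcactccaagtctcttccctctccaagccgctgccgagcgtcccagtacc
Prss50 (chr9:110857817-110857966, + strand): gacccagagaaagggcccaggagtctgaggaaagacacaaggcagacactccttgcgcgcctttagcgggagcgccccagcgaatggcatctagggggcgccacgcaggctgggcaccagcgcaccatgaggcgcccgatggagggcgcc
Pklr (chr3:89135992-89136141, + strand): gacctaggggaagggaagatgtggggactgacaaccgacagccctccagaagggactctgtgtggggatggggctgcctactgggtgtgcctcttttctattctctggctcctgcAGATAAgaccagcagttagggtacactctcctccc
Tspo2 (chr17:48451523-48451672, - strand): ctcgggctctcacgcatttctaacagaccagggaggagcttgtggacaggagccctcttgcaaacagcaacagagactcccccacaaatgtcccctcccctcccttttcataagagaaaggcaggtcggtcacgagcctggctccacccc
Each motif was searched on both strands. For Runx factors it was TGTGGT, for Gata factors it was AGATAA or the variant with its first letter changed, TGATAA, for Ets factors it was GGAAGT, and for Klf factors it was CCACACCC. The only match in these 6 windows was an AGATAA in that of Pklr. Over the 32851 RefSeq promoters, windows of the same length before the start held the Runx motif in 8.40%, a Gata motif in 9.65%, the Ets motif in 13.6% and the Klf motif in 2.18%. None of these motifs contains another, and a match is a description of letters and not a site of binding.

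Most genes of megakaryocytes and platelets were higher in P2+ PreMegEs. Of 27 tested, 18 rose (66.7%, against 9.45% of all genes tested) and 1 fell, with a median log2 fold change of 0.69. Without P2+ replicate 2 the counts were 19 and 1 and the median 0.78, where 10.6% of all genes tested rose and 8.5% fell. Without P2+ replicate 3, 14 rose, and without WT replicate 1, 2 or 3, 15 rose each time. Of the 18 rises with all libraries, 5 reached 2-fold. After Treml1 came both chains of soluble guanylate cyclase, Gucy1b3 (log2 fold change 1.32 ± 0.23) and Gucy1a3 (1.27 ± 0.17), the thromboxane pathway enzyme Ptgs1 (1.26 ± 0.09) and the ATP receptor gene P2rx1 (1.20 ± 0.14). Ptgs1 measured 83.8, 81.4 and 93.2 CPM against 33.5, 37.7 and 36.4 CPM, with no overlap (adjusted p = 1.20e-05).

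Itga2b, the αIIb chain of the platelet fibrinogen receptor, measured 256, 279 and 324 CPM in P2+ and 171, 161 and 142 CPM in WT PreMegEs (1.81-fold, adjusted p = 4.47e-04). Its β3 partner Itgb3 measured 147, 155 and 250.2 CPM against 93.9, 126 and 83.3 CPM (1.82-fold, adjusted p = 0.0161). For both, P2+ replicate 3 was the highest library. Itgb3 did not pass without WT replicate 1 or 3 (adjusted p 0.0714 to 0.0717). The von Willebrand factor receptor chain Gp9 rose 1.88-fold and Selp, the adhesion receptor P-selectin, 1.90-fold (adjusted p = 0.0314). Selp did not pass without P2+ replicate 3 or WT replicate 2 or 3 (adjusted p 0.111 to 0.113), and it did not pass in the fit on all 12 libraries (adjusted p = 0.0749). Not every platelet gene followed. Pf4, the chemokine platelet factor 4, measured 59.3, 57.3 and 102 CPM against 66.3, 81.6 and 75.3 CPM, overlapping (log2 fold change -0.03 ± 0.19, adjusted p = 0.946). The paper reported Pf4 as enriched in P2+ PreMegEs, but against P2- rather than WT cells. With all 12 libraries scaled together, Pf4 was at 4.28 ± 1.64 CPM in P2- PreMegEs (mean ± SD). Vwf, which encodes von Willebrand factor, measured 59.8, 58.3 and 121 CPM against 50.3, 66.3 and 66.2 CPM and did not pass the test (adjusted p = 0.322). Ppbp, the other abundant platelet chemokine, fell from 8.67, 12.3 and 8.63 CPM to 3.73, 4.59 and 3.86 CPM (log2 fold change -1.27 ± 0.24, adjusted p = 0.00472). This only fall of the list did not pass in the fit on all 12 libraries (adjusted p = 0.248). P2ry12, Gp6 and Mmrn1 did not pass the filter on low counts.

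Of the 25 adaptors, kinases and GTPases that platelets use downstream of their receptors, 13 rose (52% against 9.45%) and none fell, with a median log2 fold change of 0.34. The same counts without P2+ replicate 2 were 12 and 0, and the number that rose was 8 without P2+ replicate 3 or WT replicate 1 and 7 without WT replicate 2. Rap1b, the GTPase that switches on αIIbβ3, measured 899.7, 964 and 1149.8 CPM against 465, 579 and 494 CPM (1.96-fold, adjusted p = 2.12e-04). The exchange factor gene Vav3 (2.02-fold), the protein kinase C genes Prkca (1.67-fold) and Prkcb (2.18-fold), the phospholipase gene Plcg2 (1.66-fold) and the kinase gene Src (1.64-fold) rose too. Prkcb lay at only 6.02, 4.31 and 3.40 CPM in the P2+ libraries. Prkcb did not pass without P2+ replicate 1 or 2 or WT replicate 1, 2 or 3 (adjusted p 0.0562 to 0.161) and Src did not pass without P2+ replicate 1 or 3 or WT replicate 1, 2 or 3 (adjusted p 0.0517 to 0.0747). Prkcb also did not pass in the fit on all 12 libraries (adjusted p = 0.118) or with the replicate number as a block (adjusted p = 0.0560). Vav1 measured 37.0, 38.5 and 39.5 CPM against 50.0, 41.9 and 50.2 CPM (adjusted p = 0.0680).

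Erythroid genes were mostly lower in P2+ PreMegEs. Of 25 tested, 15 fell (60% against 7.07% of all genes tested) and 1 rose, with a median log2 fold change of -1.15, and 13 of the falls reached 2-fold. Without WT replicate 1 or 2, 11 of 24 fell and 0 rose, and without P2+ replicate 3, 12 of 25 fell and 2 rose. Besides the genes above, the blood group genes Kel and Rhd fell 9.18-fold and 7.59-fold, and the ankyrin gene Ank1 fell from 37.1, 46.0 and 41.9 CPM to 6.95, 13.1 and 3.94 CPM. Aqp1, the water channel of red cells, measured 431, 519 and 503 CPM against 1401, 1671 and 1539 CPM (3.17-fold, adjusted p = 2.08e-06). Epor, the erythropoietin receptor, measured 33.5, 34.5 and 37.8 CPM against 82.0, 75.9 and 77.5 CPM (2.23-fold lower, adjusted p = 1.71e-05). For Kel and Ank1, P2+ replicate 2 was the highest of the P2+ libraries, yet below every WT library.

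Other red cell genes, chosen after their values were seen, were highest in P2+ replicate 2. Hbb-bs, a beta-globin gene whose near-identical copy Hbb-bt may share its reads, measured 7.46, 26.4 and 3.63 CPM in the P2+ libraries and 9.44, 11.5 and 11.7 CPM in the WT libraries. Slc4a1, the anion exchanger band 3, measured 20.6, 55.9 and 6.71 CPM against 16.1, 23.3 and 21.0 CPM, and Alas2, the erythroid enzyme that begins heme synthesis, 0.932, 5.65 and 0.694 CPM against 2.24, 1.37 and 2.07 CPM. In each of the 3, P2+ replicate 2 was the highest of the 6 libraries and P2+ replicate 3 the lowest, and for Slc4a1 P2+ replicate 1 lay within the range of the WT libraries. Without P2+ replicate 2, 17 of 25 erythroid genes fell and 0 rose, with a median log2 fold change of -1.22. The spectrin gene Sptb, which rose 1.57-fold with all libraries, did not pass without it (adjusted p = 0.0556) or without WT replicate 1 or 2, whereas Hbb-bs did, as a fall (log2 fold change -0.97 ± 0.29, adjusted p = 0.0341). The alpha-globin genes did not pass the filter on low counts, and as near-identical copies they may have lost reads that align to both.

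Genes of heme synthesis and iron handling showed smaller falls. Of 20 tested, 10 fell (50% against 7.07%) and none rose, with a median log2 fold change of -0.41, and 11 fell without P2+ replicate 2. Without P2+ replicate 1 or 3, 8 fell, and without WT replicate 1 or 2, 7 fell. A single gene passed 2-fold: Slc40a1, which encodes the iron exporter ferroportin, measured 6.70, 7.42 and 5.79 CPM against 50.1, 62.6 and 51.3 CPM (8.22-fold lower, adjusted p = 1.31e-06). The pathway enzymes Alad, Ppox and Cpox fell 1.82-fold, 1.72-fold and 1.53-fold, and the iron importer gene Slc11a2 and the ferrireductase gene Steap3 1.73-fold and 1.60-fold. Alas1, the ubiquitous form of the first enzyme, measured 20.3, 15.4 and 17.98 CPM against 18.3, 17.9 and 20.1 CPM (adjusted p = 0.789).

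**Figure D3:**
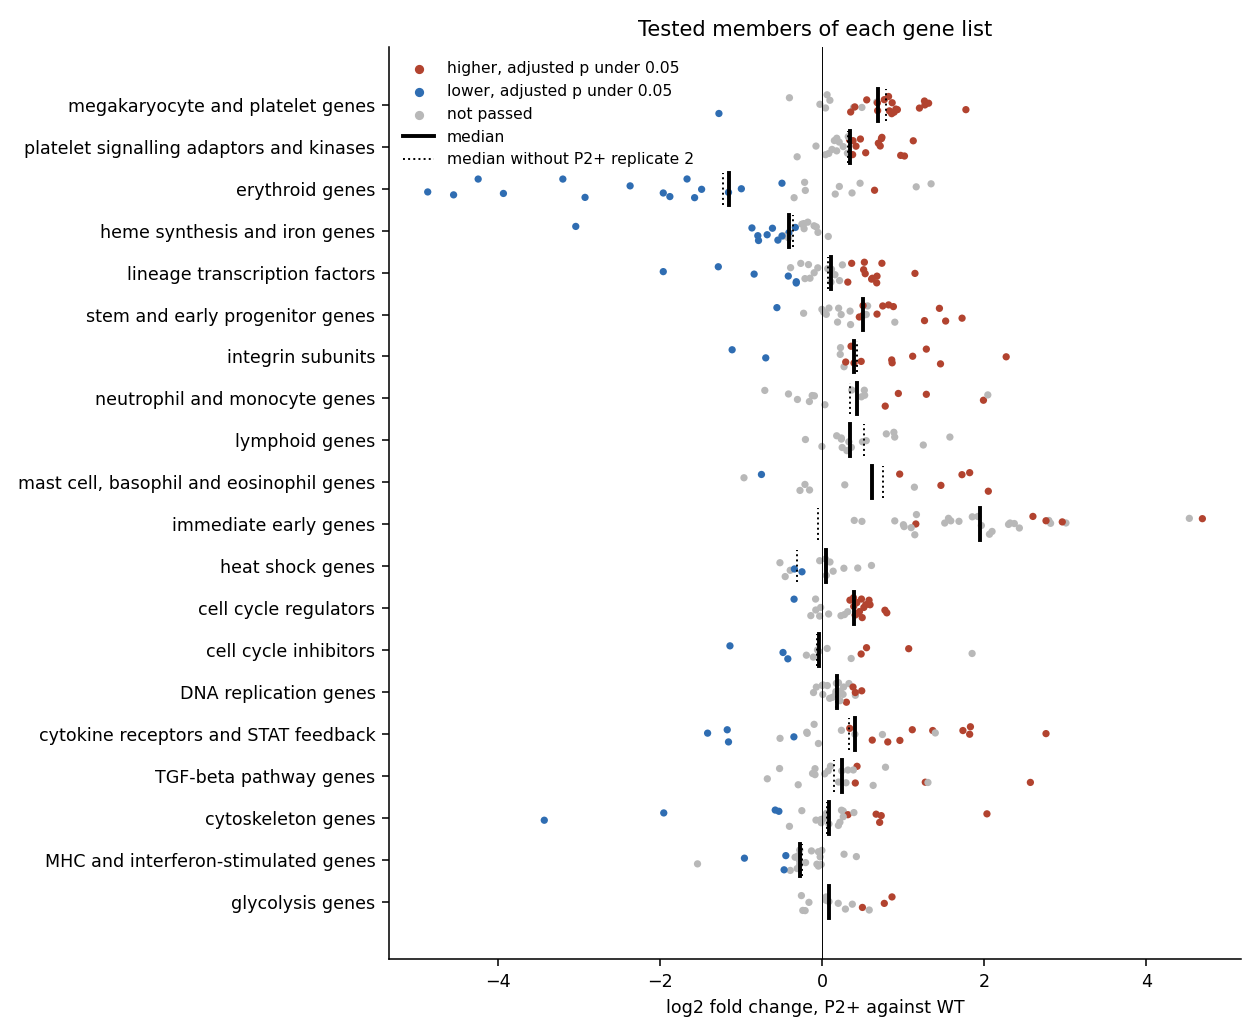
Log2 fold change of P2+ against WT PreMegEs (horizontal axis) for the tested members of 20 gene lists. Each point is a gene, red or blue at an adjusted p under 0.05, solid bars are medians over the tested members and dotted bars the same without P2+ replicate 2; the dotted bar leaves the solid one furthest for the immediate early genes, from 1.94 to -0.05.

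Transcription factors of both lineages divided. Of 30 tested, 11 rose (36.7% against 9.45%) and 6 fell (20% against 7.07%), and without P2+ replicate 2 the counts were 11 and 8. Without WT replicate 1 they were 8 and 4. Klf1, the master factor of erythroid genes, measured 58.9, 59.9 and 60.3 CPM against 229, 223 and 244 CPM (3.89-fold lower, adjusted p = 2.99e-07). The replicates of each group lay within a narrow range. Ldb1, the bridging cofactor of GATA1 complexes, measured 143, 178 and 151 CPM against 403, 389.6 and 356 CPM (2.43-fold lower, adjusted p = 1.84e-05), and its exons overlap those of Pprc1. Myb, a factor of cycling progenitors, fell 1.79-fold (adjusted p = 8.52e-05).

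Gata1, which both lineages need, fell 1.25-fold, from 233, 229.7 and 238 CPM to 181, 180.5 and 200.2 CPM (adjusted p = 0.0178). The groups did not overlap, but Gata1 did not pass without P2+ replicate 1 or WT replicate 1, 2 or 3 (adjusted p 0.0535 to 0.0600), and it did not pass by the exact test (adjusted p = 0.0544). Gfi1b, another factor of both lineages, measured 96.3, 88.7 and 136 CPM against 134, 144 and 142 CPM, overlapping (adjusted p = 0.0809), and Tal1 measured 516, 512 and 553 CPM against 550.5, 577 and 565 CPM (adjusted p = 0.351). Among the rises the homeodomain factor Meis1 rose 1.60-fold, Runx2 1.67-fold and the Ets factors Fli1 and Erg 1.54-fold and 1.53-fold. Fli1, which drives megakaryocyte genes, measured 390.2, 384 and 463 CPM against 257, 283 and 264 CPM (adjusted p = 0.00112).

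Genes of stem and early progenitor cells were often higher, with 11 of 25 rising (44% against 9.45%) and 1 falling, and a median log2 fold change of 0.51. Without P2+ replicate 2, 13 rose and 1 fell, and without WT replicate 2, 7 rose. Esam, an adhesion molecule of stem cells and endothelium, measured 34.3, 39.3 and 53.5 CPM against 14.3, 12.9 and 11.2 CPM (3.31-fold, adjusted p = 1.54e-04). Cd34, a sialomucin of early progenitors that overlaps Gm16897, measured 390.2, 259 and 301 CPM against 149.96, 124 and 121 CPM (2.40-fold, adjusted p = 2.77e-04). Fgd5, an exchange factor that marks stem cells, rose 2.73-fold and Hlf, a transcription factor of stem cells, 1.84-fold. Fgd5 did not pass without P2+ replicate 1 or 3 or WT replicate 1 or 2 (adjusted p 0.0511 to 0.0936). Ly6a, which encodes Sca1 and whose protein the gate required to be absent, rose 2.88-fold but stayed at 2.88, 3.18 and 4.01 CPM. Ly6a did not pass without WT replicate 1 or 2 (adjusted p 0.0521 to 0.0598). Sox4 fell 1.47-fold (adjusted p = 0.00199).

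Integrin subunits were mostly higher. Of 15 tested, 10 rose (66.7% against 9.45%) and 2 fell, and without P2+ replicate 2, 11 and 2. Without P2+ replicate 3, 6 rose, and without WT replicate 1, 5. Besides Itgb6, Itga2b and Itgb3, the rises included Itga9 (2.75-fold) and the collagen receptor chain Itga2 (2.17-fold). Itga2 did not pass without P2+ replicate 3 or WT replicate 1 or 3 (adjusted p 0.0590 to 0.0911). Itga4 measured 1093, 1178 and 1101 CPM against 1761, 1939.6 and 1756 CPM (1.62-fold lower, adjusted p = 4.05e-05), and its partner Itgb7 fell 2.16-fold (adjusted p = 0.00108). The α4 and β7 chains form the receptor with which leukocytes bind MAdCAM-1.

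In the cytoskeleton, 5 of 23 genes rose (21.7% against 9.45%) and 4 fell (17.4% against 7.07%), and the counts were 6 and 4 without P2+ replicate 2. Leaving out P2+ replicate 3, WT replicate 1, WT replicate 2 or WT replicate 3 left 3, 2, 2 and 3 rises, and without WT replicate 1 or 3 the falls numbered 2. The non-muscle myosin chain Myh10, which is silenced as megakaryocytes become polyploid, measured 10.0, 9.04 and 11.3 CPM against 30.1, 49.3 and 38.4 CPM (3.87-fold lower, adjusted p = 1.01e-04). Its relative Myh9 measured 647, 712 and 731 CPM against 546, 619 and 628 CPM (adjusted p = 0.0778). The tubulin gene Tubb6 measured 5.51, 4.03 and 4.78 CPM against 1.61, 1.03 and 0.811 CPM (adjusted p = 0.00379), and Tubb1, the beta-tubulin of platelets, did not pass by edgeR (log2 fold change -0.40, adjusted p = 0.310). Tubb3, at 0.424, 0.0706 and 0.154 CPM against 3.08, 1.97 and 1.92 CPM, was under 1 CPM in every P2+ library and passed the filter through the WT group. The actin-binding genes Coro1a and Tpm4 rose 1.66-fold and 1.59-fold. Tpm4 did not pass without P2+ replicate 1 or 3 or WT replicate 1, 2 or 3 (adjusted p 0.0627 to 0.156), and it did not pass in the fit on all 12 libraries (adjusted p = 0.0688).

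Of 21 genes of the TGF-beta pathway, 4 rose (19% against 9.45%) and none fell, and without P2+ replicate 2, 6 rose and 2 fell. Without P2+ replicate 3 there were also 2 falls, and DESeq2 and limma each called 1 with all libraries. Besides Tgfbi the rises were the activin receptor gene Acvr1b, with 171, 136 and 142 CPM against 65.0, 61.5 and 59.2 CPM (2.42-fold, adjusted p = 2.00e-05), Smad1 (1.35-fold) and Bmpr2 (1.33-fold). Smad1 did not pass without P2+ replicate 1 or 3 or WT replicate 1, 2 or 3 (adjusted p 0.0634 to 0.0884), which covers every library but P2+ replicate 2, and it did not pass in the fit on all 12 libraries (adjusted p = 0.0535). The ligand gene Tgfb1 measured 738, 946 and 913 CPM against 631, 678 and 806 CPM (adjusted p = 0.0923). Smad7, an inhibitor of the pathway, measured 17.9, 111 and 18.3 CPM against 29.8, 31.8 and 34.2 CPM, and was below every WT library in P2+ replicates 1 and 3.

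Cytokine receptors and the feedback genes of STAT signalling changed in both directions. Of 23 tested, 10 rose (43.5% against 9.45%) and 4 fell (17.4% against 7.07%), and the same numbers passed without P2+ replicate 2, whereas 6 rose without WT replicate 2 or 3. Among the feedback inhibitors Socs2 measured 6.36, 10.3 and 5.94 CPM against 1.26, 2.83 and 2.73 CPM (3.34-fold, adjusted p = 0.00904) and Socs1 rose 2.58-fold. Il6ra, the IL-6 receptor, rose 2.16-fold (adjusted p = 0.00308). Ifngr1, the ligand-binding chain of the interferon gamma receptor, fell from 376, 361 and 406 CPM to 163, 188 and 157 CPM (2.25-fold, adjusted p = 2.26e-05), and Il18r1, the IL-18 receptor, fell 2.66-fold (adjusted p = 0.0377). Il18r1 did not pass without P2+ replicate 2 or 3 or WT replicate 1, 2 or 3 (adjusted p 0.0721 to 0.112), or with the replicate number as a block (adjusted p = 0.0547). Cish, a target of STAT5, was highest in P2+ replicate 2, with 21.8, 86.9 and 25.4 CPM in the P2+ libraries against 14.6, 19.3 and 17.3 CPM (adjusted p = 0.0535).

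Cell cycle genes were modestly higher. Of 25 regulators tested, 15 rose (60% against 9.45%) and 1 fell, with and without P2+ replicate 2 alike in number, and none reached 2-fold (median log2 fold change 0.39). Without P2+ replicate 1, WT replicate 1 or WT replicate 2, the rises numbered 9, 7 and 8. Ccna2, cyclin A2, measured 412, 304 and 356 CPM against 199.7, 206 and 220.1 CPM (1.71-fold, adjusted p = 8.92e-04). Ccne2, a cyclin of entry into S phase, rose 1.74-fold, the mitotic cyclin gene Ccnb1 1.51-fold and Mki67, the proliferation marker, 1.35-fold. Ccnd2, a cyclin of early G1 phase, fell 1.27-fold. Ccne2 did not pass without WT replicate 3 (adjusted p 0.0591), Ccnb1 did not pass without WT replicate 3 (adjusted p 0.0569) and Ccnd2 did not pass without P2+ replicate 3 or WT replicate 2 (adjusted p 0.0520 to 0.0779). Ccnd2 also did not pass by the exact test (adjusted p = 0.0848).

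DNA replication genes showed less, with 4 of 24 rising (16.7% against 9.45%), 8 without P2+ replicate 2, and a median log2 fold change of 0.19. None of them passed by edgeR without P2+ replicate 1, WT replicate 1 or WT replicate 2, and 2 rose without WT replicate 3. Rrm2, a subunit of ribonucleotide reductase, rose 1.40-fold, and Rrm2 did not pass without P2+ replicate 1 or 3 or WT replicate 1 or 2 (adjusted p 0.0532 to 0.0796). Of 13 cell cycle inhibitors, 3 rose (23.1% against 9.45%) and 3 fell (23.1% against 7.07%), and the counts were 3 and 4 without P2+ replicate 2, and without WT replicate 1, 2 or 3 the rises numbered 1, 0 and 1. Gadd45a fell 2.20-fold (adjusted p = 0.0127) and Trp53 1.40-fold (adjusted p = 0.00146), whereas Cdkn1c, the inhibitor p57, rose 2.10-fold (adjusted p = 0.0461) and Cdkn2c, an inhibitor of cyclin D kinases, 1.40-fold. Cdkn1c did not pass without P2+ replicate 1 or 2 or WT replicate 1, 2 or 3 (adjusted p 0.0636 to 0.143). It also did not pass by limma (adjusted p = 0.0511) or with the replicate number as a block (adjusted p = 0.0642). Gadd45a did not pass without WT replicate 3 (adjusted p 0.0584) and Cdkn2c did not pass without P2+ replicate 1 or 3 or WT replicate 2 or 3 (adjusted p 0.0762 to 0.0930).

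Of 15 glycolysis genes tested, 3 rose (20% against 9.45%), namely Pkm (1.70-fold), the glucose transporter gene Slc2a1 (1.82-fold) and Hk2 (1.41-fold), and none fell, against 3 and 1 without P2+ replicate 2 and 1 fall by DESeq2 or in the fit on all 12 libraries. Scaled to exonic length, the level of Pkm was 41.3 ± 2.02 RPKM in P2+ and 24.2 ± 2.57 RPKM in WT PreMegEs (mean ± SD, n = 3), and that of Pklr was 0.643 ± 0.243 and 14.98 ± 2.92 RPKM. Gapdh, of which the genome holds many near-identical copies, measured 8.31, 10.2 and 10.3 CPM against 6.71, 6.26 and 6.27 CPM (adjusted p = 0.0684). Of 21 MHC and interferon-stimulated genes, 3 fell (14.3% against 7.07%) and none rose, and without P2+ replicate 2, 4 fell and 2 rose, while with all libraries DESeq2 called 7 falls and 1 rise and limma 5 falls and 1 rise. Ifitm1 fell 1.94-fold (adjusted p = 0.00142) but did not pass in the fit on all 12 libraries (adjusted p = 0.0521), whereas B2m measured 1289, 1571 and 1563 CPM against 1385, 1446 and 1599 CPM (adjusted p = 0.991).

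Markers of other blood cells bear on these values. Of 16 neutrophil and monocyte genes, 4 rose (25% against 9.45%) and none fell, and without P2+ replicate 2, 4 rose and 1 fell, and without P2+ replicate 1 there was also 1 fall. Besides Csf3r the rises were Lyz2, the lysozyme gene, with 177, 189.9 and 195 CPM against 97.2, 88.2 and 107 CPM (1.92-fold, adjusted p = 8.72e-05), Itgam (2.44-fold) and the granule protease gene Prtn3 (1.72-fold). Prtn3 did not pass without P2+ replicate 1 or 3 or WT replicate 2 or 3 (adjusted p 0.0573 to 0.108). Over the whole list the summed level was between 399 and 567 CPM in the P2+ and between 220.3 and 402 CPM in the WT libraries, which overlap. Mpo, the granule enzyme myeloperoxidase, measured 187, 53.7 and 76.5 CPM against 139.9, 51.5 and 53.4 CPM, with replicate 1 the highest in both groups, and the late granule gene Ngp 0.170, 31.6 and 0.0772 CPM against 2.59, 3.09 and 2.14 CPM, so that most of it was in P2+ replicate 2. The granule genes S100a8, S100a9 and Ltf were under the filter, with their highest levels of 8.55, 9.54 and 4.38 CPM in P2+ replicate 2.

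Of 12 genes of mast cells, basophils and eosinophils, 5 rose (41.7% against 9.45%) and 1 fell, and without P2+ replicate 2, 5 and 2. Cpa3, carboxypeptidase A of mast cells, measured 45.9, 40.2 and 33.0 CPM against 15.2, 13.3 and 14.5 CPM (2.76-fold, adjusted p = 1.26e-04), Hdc, which makes histamine, rose 3.31-fold (adjusted p = 0.00204) and Mitf 1.94-fold. The IL-33 receptor gene Il1rl1 fell 1.68-fold. Mitf did not pass without P2+ replicate 1 or WT replicate 1 or 3 (adjusted p 0.0504 to 0.0623) and Il1rl1 did not pass without WT replicate 2 (adjusted p 0.0753). The defining protease genes Tpsb2, Tpsab1 and Cma1 had no count in any of the 6 libraries, and Mcpt8 did not exceed 0.369 CPM. The summed level of the list was between 1288 and 1385 CPM in the P2+ and between 1392 and 1480 CPM in the WT libraries, with Gata2 making up most of these counts.

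None of 16 lymphoid genes passed in either direction by edgeR, DESeq2 or limma. At an unadjusted p under 0.05 there was 1 such gene by edgeR, 0 by DESeq2 and 3 by limma, and without P2+ replicate 3, 1 gene passed by edgeR. The summed level of these genes was 239.7 CPM in P2+ replicate 1 and between 88.1 and 125 CPM in the other 5 libraries. The part of these other blood cell genes in the results was not tested.

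P2+ replicate 2 was the highest of the 6 libraries for all 30 immediate early genes tested, and for 29 of them by at least 2 times the next library. These are genes that cells induce within minutes of stimulation. Their level in it was 10.7 times the median of the other 5 libraries in the median gene, from 2.12 to 2179 times. Fos measured 0.932, 924 and 18.8 CPM in the P2+ libraries and 0.839, 22.6 and 168 CPM in the WT libraries, and Jun 14.7, 2306 and 77.5 CPM and 9.72, 103 and 448 CPM. Egr1 measured 11.1, 1347 and 8.18 CPM and 27.3, 43.0 and 99.4 CPM. WT replicate 3 was the highest of the other 5 libraries for 16 of the 30 genes. With all libraries the median log2 fold change of the list was 1.94 and 5 genes rose (16.7% against 9.45%). Nr4a1, an orphan nuclear receptor, had the largest fold change of these, with 5.76, 193 and 3.94 CPM against 1.54, 1.20 and 5.02 CPM, which overlap. In contrast, without P2+ replicate 2 the median was -0.05, and of 29 genes 1 rose and 1 fell. The count of rises was 14 without P2+ replicate 1, 12 without P2+ replicate 3 and 0 when any WT library was left out, and with all libraries it was 11 by the exact test, 1 by DESeq2 and 0 by limma. It was 1 with the replicate number as a block and 0 in the fit on all 12 libraries. With no filter on low counts 27 of 34 rose, and Egr2, Egr3, Atf3 and Nr4a3 were under the filter.

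The changed genes with the largest rises that lost their call without P2+ replicate 2, and that met the other conditions for naming, were Cd69, Socs3, Dusp5, Bhlhe40, Tiparp and Ctla2b. Cd69, an early activation antigen, measured 12.0, 176 and 11.9 CPM against 9.86, 5.83 and 9.88 CPM, and its log2 fold change of 2.96 ± 0.91 became 0.48 ± 0.24 without that library. Socs3, a feedback inhibitor of STAT3 signalling, measured 6.53, 55.1 and 4.78 CPM against 2.94, 3.43 and 3.47 CPM, with log2 fold changes of 2.76 ± 0.80 and 0.79 ± 0.32. Dusp5 and Bhlhe40 behaved alike, from 2.60 ± 0.72 to 1.09 ± 0.41 and from 2.10 ± 0.62 to 0.70 ± 0.28. Tiparp and Ctla2b kept an adjusted p of 0.0429 and 0.00227 with log2 fold changes of 0.55 ± 0.18 and 0.98 ± 0.18, under the 2-fold minimum. Cd69, Socs3, Dusp5, Bhlhe40 and Tiparp also failed to pass when any WT library was left out, in the fit on all 12 libraries (adjusted p = 0.0730 to 0.132) and by limma (0.0730 to 0.237), and Bhlhe40 and Tiparp by DESeq2 (0.0708 and 0.0973). With the replicate number as a block, Cd69, Socs3, Dusp5 and Tiparp did not pass either (adjusted p = 0.0509 to 0.180). Of 13 heat shock genes 2 fell with all libraries (15.4% against 7.07%) and 5 without P2+ replicate 2, where 8.5% of all genes tested fell, and none rose in either. Leaving out P2+ replicate 1, P2+ replicate 3, WT replicate 2 or WT replicate 3 gave 0 falls by edgeR, as did the exact test with all libraries, and without P2+ replicate 1 there was 1 rise.

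The same-numbered library of the P2- fraction, P1+ cells without human CD4 from mice of the same reporter genotype, showed these genes high as well. With all 12 libraries scaled together, P2- replicate 2 was the highest of the 3 P2- libraries for all 30 immediate early genes and reached at least 2 times the next of them for 29, by 17.4 times in the median gene. P2+ and P2- replicate 2 both lay above the other 10 libraries for 29 of the 30, Per1 being the exception. Fos measured 0.319, 1336 and 11.6 CPM and Jun 4.86, 2413 and 28.6 CPM in the P2- libraries. Cd69 measured 1.43, 114 and 2.05 CPM, Socs3 1.04, 43.1 and 0.848 CPM, Dusp5 2.39, 52.0 and 2.19 CPM, Bhlhe40 3.35, 60.1 and 4.45 CPM and Tiparp 17.8, 73.0 and 17.2 CPM. In contrast, replicate 2 was the highest WT library for 4 and the highest RUNX1C KO library for 6 of the 30 genes. P2- replicate 2 also had no count of Xist, against 713 and 2733 CPM in P2- replicates 1 and 3.

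**Figure D4:**
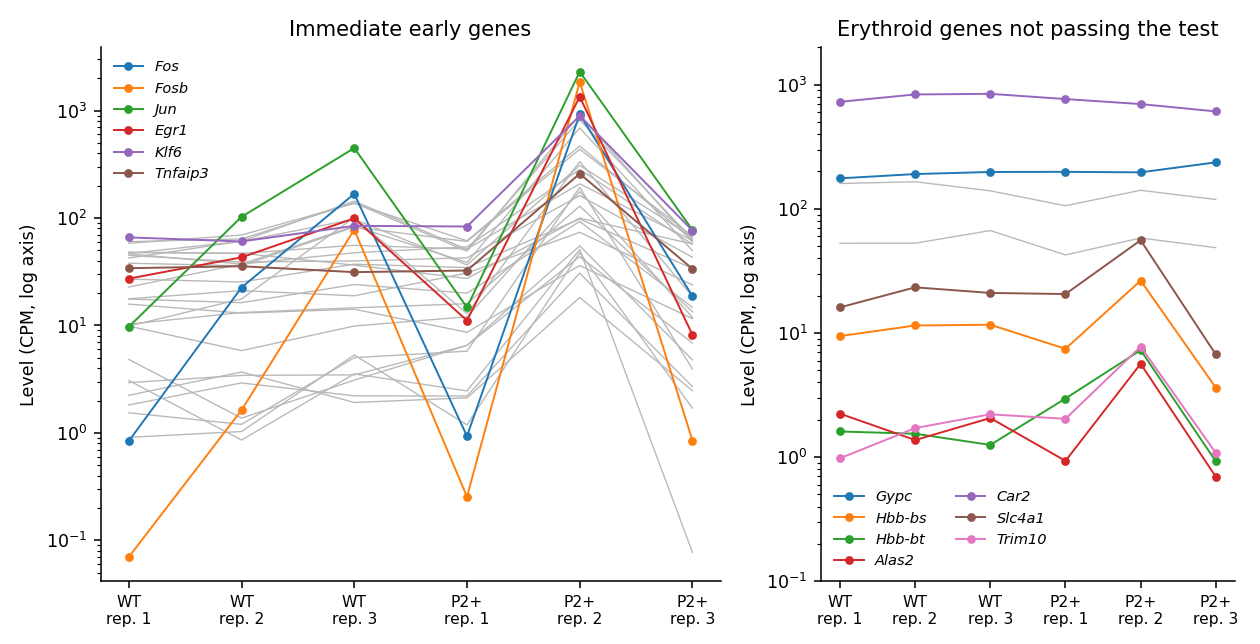
Level in CPM (log axis) in each library of the 30 tested immediate early genes (left) and of the erythroid genes that did not pass the test (right), with a line per gene and named genes in colour. The immediate early genes peak in P2+ replicate 2, where Jun reaches 2306 CPM, and Jun, Fos and Fosb are next highest in WT replicate 3; Hbb-bs and Slc4a1 are also highest in P2+ replicate 2.

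The P2- fraction and PreMegEs of RUNX1C knockout mice give the levels beside which both groups can be set, with all 12 libraries scaled together and without a test. RUNX1C is the protein made from P1. The paper describes RNA-Seq of WT, P2+ and P2- PreMegEs only, so for the RUNX1C KO libraries a batch cannot be told apart from genotype. Pf4 was at 4.28 ± 1.64 CPM in P2- (mean ± SD, n = 3) and 16.7 ± 2.23 CPM in RUNX1C KO PreMegEs, with every library below those of P2+ and WT. Itga2b was at 51.2 ± 11.6 and 115 ± 5.92 CPM, also below every P2+ and WT library. Tgfbi was at 0.454 ± 0.318 CPM in P2-, below every WT library, and at 3.17 ± 1.04 CPM in RUNX1C KO PreMegEs, above every WT library and below every P2+ library. Klf1 was at 391 ± 42.0 CPM in P2- and 371 ± 9.72 CPM in RUNX1C KO PreMegEs, Car1 at 503 ± 79.5 and 395 ± 33.0 CPM, and Sphk1 at 87.5 ± 19.0 and 75.3 ± 11.5 CPM, each above the WT libraries.

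Without the limit to 12 in each direction, 267 genes met the conditions for naming. In P2+ PreMegEs 135 of them rose and 132 fell, and a few lay on the same side of WT in every P2- library as well. There were 6 such higher genes, among them Ppm1e, a phosphatase, Rxra, a retinoid receptor, and the kinase gene Pak6. Ppm1e measured 44.8, 41.5 and 42.5 CPM in P2+ and 16.1, 12.9 and 9.66 CPM in WT PreMegEs (3.33-fold), with 27.3 ± 1.30 CPM in P2- and 58.2 ± 4.07 CPM in RUNX1C KO PreMegEs. Rxra and Pak6 rose 2.40-fold and 2.61-fold and were at 14.9 ± 2.84 and 7.48 ± 2.69 CPM in P2-. There were 9 such lower genes, among them the potassium channel gene Kcnc1, the collagen gene Col1a2 and the syndecan gene Sdc2. Kcnc1 measured 7.03, 8.48 and 5.94 CPM against 50.4, 45.4 and 41.6 CPM (6.39-fold lower, adjusted p = 3.60e-06), with 4.76 ± 0.870 CPM in P2- and 2.40 ± 0.278 CPM in RUNX1C KO PreMegEs. Col1a2 and Sdc2 fell 6.41-fold and 2.79-fold and were at 2.49 ± 2.05 and 6.36 ± 2.37 CPM in P2- and 3.08 ± 1.02 and 2.64 ± 0.806 CPM in RUNX1C KO PreMegEs. Scin, at 24.5 ± 4.49 CPM in P2- and 2.97 ± 0.878 CPM in RUNX1C KO PreMegEs, was another of them. Since P2+ and P2- are both compared with the same WT libraries, these sides are not independent of each other.

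**Figure D5:**
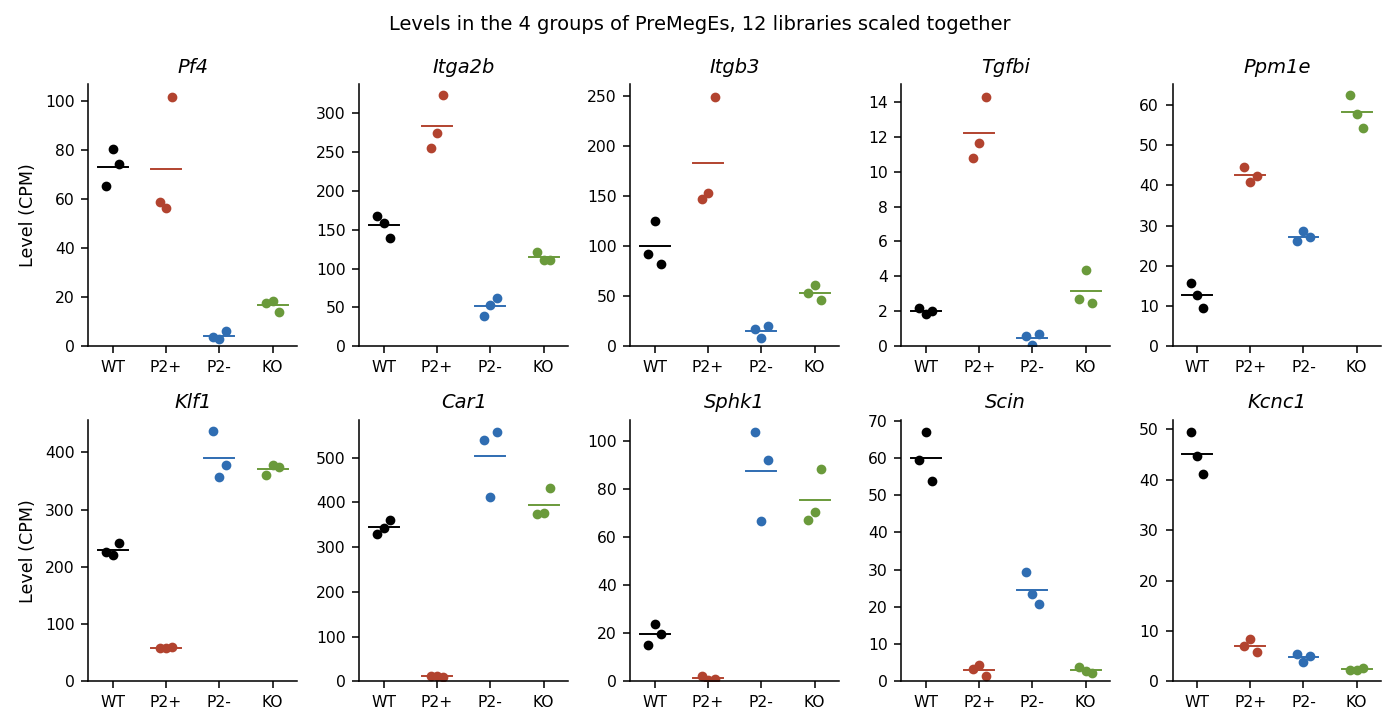
Level in CPM of 10 genes in WT, P2+, P2- and RUNX1C KO (KO) PreMegEs, scaled over the 12 libraries, with a dot per library and a line at the mean of each group. WT lies between P2+ and P2- for genes such as Klf1 and Itgb3, near P2+ for Pf4, below both for Ppm1e and above all other groups for Scin and Kcnc1.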

How the data were processed

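RNA-Seq was carried out by the authors on strand-specific poly(A) libraries of PreMegEs, each pooled from 3 mice. Reads were aligned to GRCm38 with Bowtie2 and counted on Ensembl genes with featureCounts. The strand setting and the treatment of reads with several alignments are not given in the sources used here. The deposited values are whole-number counts per gene, without normalization. Whether libraries were made in separate batches is not given.

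From these counts, the 3 P2+ libraries were set against the 3 WT libraries, grouped by the labels, in R 4.3.3 with edgeR 4.0.16. A gene was kept if 3 or more of these 6 libraries had 1 CPM or more of it. Library sizes were scaled by TMM, and the only term of the model was the group, tested two-sided by quasi-likelihood F-tests with Benjamini-Hochberg adjustment. The study's own test was edgeR's exact test with the same filter and thresholds, and is an alternative here. A gene was called changed at an adjusted p under 0.05 and at least 2-fold, and the verbs rose and fell mean an adjusted p under 0.05. CPM was TMM-scaled. The SE of a log2 fold change is its size divided by the square root of F. Errors of levels are SD over 3 libraries. p-values measure the spread between pools of mice. The fit was tested on simulated counts.

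Members and gene lists were chosen with earlier results of these data known. The genes named were the 12 largest rises and the 12 largest falls without overlap, with 10 CPM or more in the group with the higher mean, and the same call without P2+ replicate 2, 6 rises that lost their call without it, members of 21 gene lists with the largest differences, genes the study names, and up to 3 per direction on the same side of WT in P2-. List members that did not pass the test are named for contrast and were chosen after their values were seen. A gene may be in several lists. Of the list symbols, 2 were not matched. Positions, exonic lengths and overlaps came from GENCODE vM21 (GRCm38), in which 12859 of the tested genes were found by identifier, and promoter sequences from RefSeq (GRCm38.p6). Some genes are not reported here. Alternatives were RLE scaling, DESeq2 1.42.0, the exact test, limma 3.58.1 (voom with quality weights), other filters, glmTreat, all 12 libraries in a single fit, the replicate number as a block, and leaving out each library.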

Additional observations from a re-analysis of the deposited data

How the results depend on the processing

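The count of 497 changed genes (280 higher, 217 lower) depended most on how the 2-fold minimum was applied. It was 2138 genes (1223 and 915) with no minimum fold and 80 (13 and 67) when glmTreat tested against a 2-fold change, which needs the estimate to lie significantly beyond that fold. When single libraries were left out, the count ranged from 382 to 535 genes, with 216 to 296 higher and 158 to 239 lower. RLE scaling, DESeq2, the exact test, limma with quality weights, both other filters, the fit on all 12 libraries and the replicate block gave counts within 1.5 times the main ones. With the replicate block 468 genes changed (252 and 216). The replicate numbers were not taken to pair the libraries, since the deviations of same-numbered P2+ and WT libraries correlated with coefficients of 0.185, 0.00176 and -0.0313, and P2+ replicates 2 and 3 correlated best with another number. Of 1583 values of the 114 genes whose fold change is printed, 1458 kept their direction and side of the threshold, 119 kept their direction but no longer passed and 6 reversed, and neither of the genes that reversed passed with all libraries. These were Pf4, with log2 fold changes from -0.36 without P2+ replicate 3 to 0.13 without P2+ replicate 2, and 0.10 and 0.04 without P2+ replicate 1 and WT replicate 2, and Hbb-bs, with -0.51 by limma, -0.19 with the replicate block, and a range from -0.97 without P2+ replicate 2 to 0.64 without P2+ replicate 3. DESeq2 gave no adjusted p for Cd69 and Socs3. Of 294 medians of gene lists, 281 moved by less than the spread between libraries. The cause of these differences was not tested.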
